A study of Homo sapiens with 6 samples.

Results

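The inhibitors of differentiation ID1, ID2, ID3 and ID4 and the repressors HES1, HES4, HES6 and HEY1 were followed in INA-6 cells, a human multiple myeloma line whose growth depends on interleukin-6 (IL-6). The 8 genes were chosen by symbol, out of 17411 genes named on the array, at a time when differences between the treatments in these data were already known. Their differences are therefore given as a description, and a count of called members supports nothing about the family. Transcripts were read in one color on the nONCOchip, a custom oligonucleotide array, in 3 samples of INA-6 cells withdrawn from IL-6 for 13 h (withdrawn) and in 3 samples withdrawn for 13 h and then given IL-6 for 1 h (restimulated). Each group is the same line with no further agent, so the results speak for 1 line only. The samples of a group are labelled as biological replicates, but separate cultures are not stated, and a p-value covers the variation among these 6 samples and may reflect technical spread. The 8 genes were covered by 11 probes, of which HES1 had 3, ID2 had 2 and each other gene had 1.

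Helix-loop-helix proteins pair through a shared fold, and most of them bind DNA through a basic stretch beside it. ID proteins have the fold but lack the basic stretch, so they hold E proteins such as TCF3 (E2A) in pairs that cannot bind DNA. In the B cell lineage E proteins switch on early B cell and immunoglobulin genes, and ID2 and ID3 restrain them. HES and HEY proteins do bind DNA and repress their targets, in large part by recruiting corepressors of the TLE (Groucho) family. HES1, HES4 and HEY1 are known targets of Notch signaling, ID1 to ID3 are known targets of BMP signaling through SMAD factors, and HES6 is known to antagonize HES1.

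The sequence upstream of ID2 and of ID3 is shown because the values of these members lay apart between the treatments, and because IL-6 acts through STAT3, whose usual binding site is the palindrome TTCNNNGAA. Each run holds the 250 bases before the RefSeq gene start in GRCh38.p14, read 5′ to 3′ on the strand of the gene. ID2 lies on the plus strand (chr2:8681806-8682055) and ID3 on the minus strand (chr1:23559502-23559751). Capitals mark the E-box CANNTG in ID2 and the STAT palindrome in ID3.
ID2: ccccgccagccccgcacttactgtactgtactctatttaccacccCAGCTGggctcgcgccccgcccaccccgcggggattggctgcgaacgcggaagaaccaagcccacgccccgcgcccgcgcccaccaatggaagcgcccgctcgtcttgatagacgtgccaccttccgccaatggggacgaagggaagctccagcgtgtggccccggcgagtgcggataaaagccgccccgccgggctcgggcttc
ID3: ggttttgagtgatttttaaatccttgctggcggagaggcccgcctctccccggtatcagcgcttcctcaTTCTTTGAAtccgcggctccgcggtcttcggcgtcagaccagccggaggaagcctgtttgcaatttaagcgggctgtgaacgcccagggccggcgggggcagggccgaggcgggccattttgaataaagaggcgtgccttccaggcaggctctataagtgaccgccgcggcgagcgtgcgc

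For HES1 and HES4 the bases from 100 to 51 before the gene start are shown, on the plus strand for HES1 (chr3:194136048-194136097) and on the minus strand for HES4 (chr1:1000148-1000197). Capitals mark TGGGAA, the core recognized by RBPJ, the DNA-binding partner of Notch.
HES1: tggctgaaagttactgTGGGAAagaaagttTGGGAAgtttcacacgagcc
HES4: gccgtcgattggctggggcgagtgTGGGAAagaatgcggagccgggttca

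All arrays held 243504 spots, with array medians of 6.84 to 6.85 (log2 intensity). Correlations between arrays over the tested probes, which are not independent, lay between 0.982 and 0.994. A probe above the median of its array on at least 3 of the 6 arrays was tested, which left 12703 genes, each represented by its brightest tested probe. Gene names rest on a match of spots to probes inferred from the grid of the array (see the processing), so they are less certain than the values. Of 10 plasma cell markers with a probe, 10 were tested, and their summed linear signal was between 61100 and 63300 on restimulated and between 47100 and 49500 on withdrawn arrays. PRDM1, a regulator of plasma cell identity, rose by 1.29 (limma adjusted p = 0.00286). POU2AF1 (0.80, adjusted p = 0.0797), XBP1 (0.71), IRF4 (0.49) and SLAMF7 (0.41) did not pass, but their restimulated arrays all lay above the withdrawn ones. Of all genes tested 0.244% were called and 12.2% showed no overlap. In a linear sum bright genes weigh most, such as XBP1 (mean 14.34 on restimulated and 13.63 on withdrawn arrays), so the sums do not describe each marker. The other 5, among them SDC1 (between 11.11 and 11.47) and JCHAIN (between 14.19 and 14.57), overlapped. Of 10 markers of T and NK cells 8 were tested and none passed, while CD3D and KLRD1 never exceeded the median. CD4 sat at the ceiling of the scale, and without it the list summed to between 2140 and 2230 on restimulated and between 2530 and 2780 on withdrawn arrays, with CD2 (-0.45) and GNLY (-0.68) not overlapping. GNLY read 8.44 on withdrawn replicate 3 and between 6.65 and 6.98 on the other arrays, so its difference rests mostly on 1 array. Of 6 neural markers 5 were tested, with sums between 5200 and 5910 against 4730 and 4990. SOX2 rose by 1.04 (limma adjusted p = 0.0176), DCX read lower without passing (-0.51), and OLIG2 never exceeded the median. Of 8 fibroblast markers PDGFRA (1.2, limma adjusted p = 0.0504) and THY1, at the ceiling, were tested, and without THY1 the list summed to between 956 and 990 against 707 and 823, with COL1A2, COL3A1, LUM and PDGFRB never above the median. Of 9 myeloid markers 7, LYZ and MPO among them, never exceeded it, and the sums were between 1360 and 1540 against 1490 and 2090. CD14 (between 9.06 and 10.29, difference -0.55) and ITGAM (between 7.61 and 7.79, difference -0.01) were tested, overlapped and did not pass. In the B cell, epithelial and endothelial lists no gene passed. Among them the B cell genes CR2 (-0.16) and CD22 (-0.24) lay lower without overlap on restimulated arrays, and KRT18 (0.11) higher. KRT8, an epithelial marker, read between 14.35 and 14.93 with overlap. The epithelial sums were between 21700 and 32000 on restimulated and between 21800 and 31700 on withdrawn arrays. The part of these levels in the results below was not tested. RNA of whole samples cannot tell fewer cells of a type from less RNA per cell.

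ID2 was higher in restimulated cells. Its brighter probe read 10.82, 11.18 and 10.95 (log2 intensity) on restimulated and 9.73, 9.99 and 9.67 on withdrawn arrays, so that the groups lay 0.83 apart at their nearest values. The other ID2 probe read 9.86, 10.33 and 10.24 against 9.17, 9.07 and 8.97, a gap of 0.69. Both probes thus put every restimulated array above every withdrawn one. For the brighter probe the restimulated mean was 10.98 ± 0.18 (SD, n = 3) and the withdrawn mean 9.79 ± 0.17 (SD, n = 3). This is a log2 difference of 1.19 ± 0.13 (SE, 95% interval 0.87 to 1.5), or 2.28-fold. The dimmer probe differed by 1.07, or 2.11-fold. The brighter probe exceeded the dimmer by between 0.56 and 0.96 on single arrays.

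**Figure D1:**
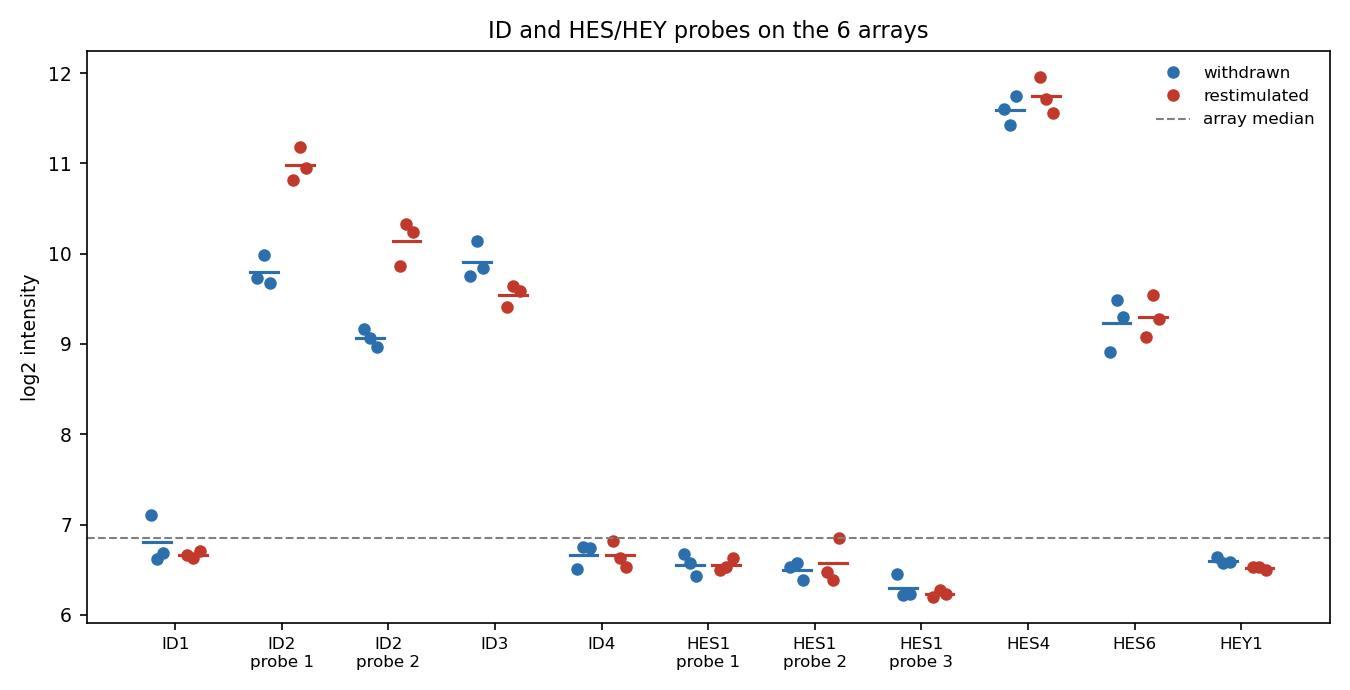
Log2 intensity (vertical axis) of the 11 probes of the 8 genes, with 1 point per array, short bars for the mean of the 3 withdrawn (blue) and 3 restimulated (red) arrays, and a dashed line at the array median. Both ID2 probes lie higher on restimulated arrays, the ID3 probe lies between 9.41 and 10.14 with the restimulated arrays lower, and the probes of ID1, ID4, HES1 and HEY1 lie between 6.20 and 7.11.

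ID2 was the 1 of the 4 tested members that passed an adjusted p of 0.05 over all genes (limma adjusted p = 0.0425), where 0.244% of all genes tested were called. It ranked 28th by p among the 31 called genes. Over all tested probes, where 1.83% were called, both of its probes passed (limma adjusted p = 0.0176 and 0.0278). The call of the gene was lost whichever array was left out. The adjusted p was 0.133, 0.168 and 0.168 without restimulated replicates 1, 2 and 3, and 0.291, 0.0791 and 0.192 without withdrawn replicates 1, 2 and 3, while the difference stayed between 1.09 and 1.28. An exact two-sided permutation test of 3 against 3 values cannot go below p = 0.1, and ID2, ID3 and also HEY1, which lay below the array median throughout, reached that bound.

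ID3, the other ID gene with a clear signal, lay on the opposite side. It read 9.41, 9.64 and 9.59 on restimulated and 9.75, 10.14 and 9.84 on withdrawn arrays, and the groups lay 0.11 apart. The log2 difference was -0.36 ± 0.12 (SE, 95% interval -0.67 to -0.06, 1.29-fold lower) and did not pass over all genes (limma adjusted p = 0.523). ID2 and ID3 were the 2 of the 4 tested members whose groups did not overlap, and 12.2% of all genes tested showed no overlap. With 1 array left out the ID3 difference lay between -0.44 and -0.25.

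ID1 and ID4 were not tested. ID1 read 6.66, 6.63 and 6.71 on restimulated and 7.11, 6.62 and 6.69 on withdrawn arrays, so that withdrawn replicate 1 was the only array on which it exceeded the median. ID4 lay between 6.51 and 6.82 and below the median of each array. Neither probe gave a level from which a difference could be read.

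HES4 was bright and differed little between the treatments. It read 11.96, 11.71 and 11.56 on restimulated and 11.60, 11.43 and 11.75 on withdrawn arrays, with overlapping groups. The log2 difference was 0.15 ± 0.13 (SE, 95% interval -0.18 to 0.48, limma adjusted p = 0.836). HES6 read 9.08, 9.54 and 9.28 on restimulated and 8.91, 9.49 and 9.30 on withdrawn arrays, again with overlap. Its difference of 0.07 ± 0.18 (SE, 95% interval -0.39 to 0.52, limma adjusted p = 0.951) turned to -0.05 without restimulated replicate 2 and to -0.09 without withdrawn replicate 1. For both genes the intervals hold changes in either direction, so equal levels are not shown.

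HES1 and HEY1 lay at or below the array median with 1 exception. The 3 HES1 probes lay between 6.20 and 6.85, and of their 18 values 1 exceeded the median, on restimulated replicate 3. HEY1 read 6.53, 6.53 and 6.50 on restimulated and 6.64, 6.57 and 6.59 on withdrawn arrays. These groups were 0.04 apart but below the median throughout, where no direction can be read. Over the 6 probes that were not tested the differences ran from -0.14 to 0.08.

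**Figure D2:**
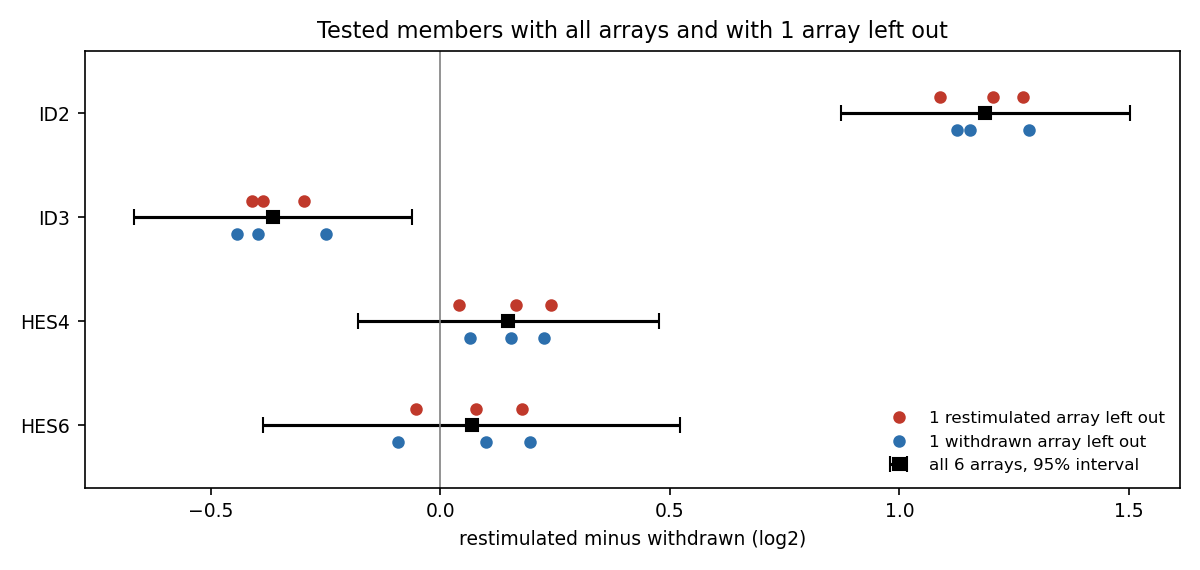
Restimulated minus withdrawn log2 difference (horizontal axis) of the 4 tested members, with squares and 95% intervals from all 6 arrays and points from fits without 1 restimulated (red) or 1 withdrawn (blue) array. ID2 stays between 1.09 and 1.28 and ID3 between -0.44 and -0.25, while the points of HES6 lie on both sides of 0.

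Among all genes tested ID2 belonged to a thin upper tail. The median log2 difference of the 12703 genes was 0.0080, and differences ranged from -2.09 to 3.87, the latter for SOCS3, which feeds back on JAK kinases to limit STAT3 signaling. SGK1, a serum- and hormone-induced kinase, differed by 2.72.

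**Figure D3:**
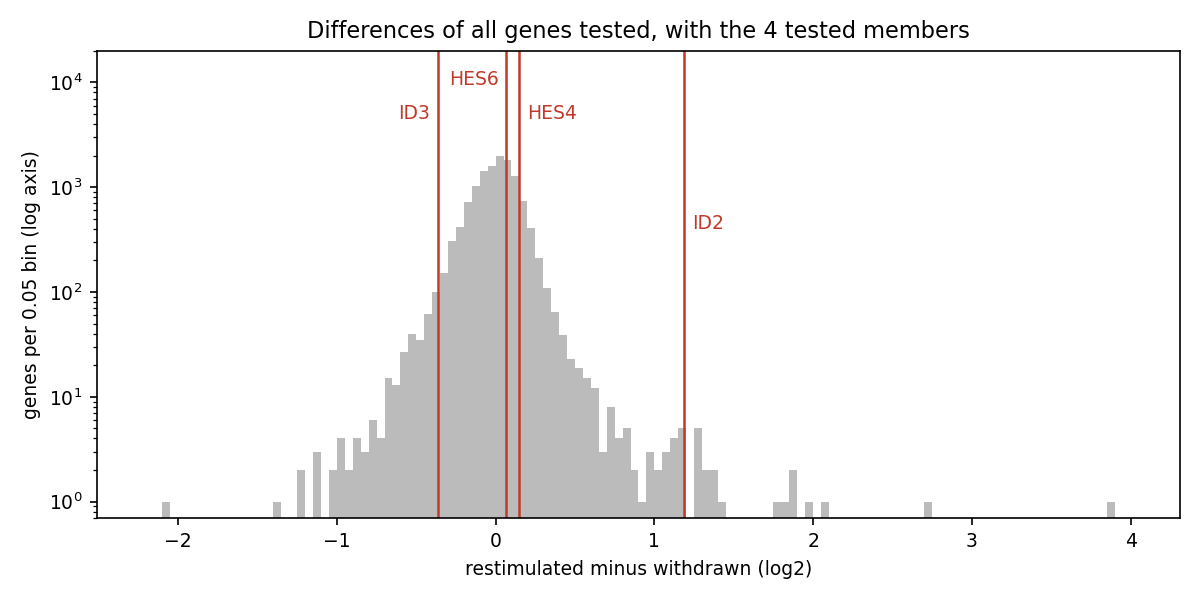
Distribution of the restimulated minus withdrawn log2 difference (horizontal axis) over the 12703 genes tested, with the number of genes per bin on a log axis and red lines at ID3 (-0.36), HES6 (0.07), HES4 (0.15) and ID2 (1.19). ID2 lies beyond the bulk of the genes and the other tested members lie within it.

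The relatives of HES and HEY that are not among the 8 genes gave 1 call, where 0.244% of all genes tested were called. BHLHE40, a repressor that also responds to the circadian clock, read 9.60, 9.47 and 9.43 on restimulated and 7.55, 7.47 and 7.49 on withdrawn arrays and rose by 2.00 ± 0.07 (SE, limma adjusted p = 0.000634). Its close relative BHLHE41 read 8.96, 9.02 and 9.29 against 9.38, 9.52 and 9.05, a difference of -0.23 ± 0.15 (SE, adjusted p = 0.776). Of 7 such genes with a probe 6 were tested, 1 was higher and none lower, with a median of -0.02. HES5, a Notch target, differed by -0.22 ± 0.09 (SE, adjusted p = 0.616), HEYL by 0.06 ± 0.07 (SE, adjusted p = 0.881), and HEY2 by -0.04 ± 0.17 (SE, adjusted p = 0.974). HES7 sat at the ceiling of 16 on all arrays, so no difference could be measured, and HES2 lay below the median throughout.

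Partners of both families were among the genes tested, which means a probe above the array median and not a call of presence. The E proteins that ID proteins bind were all tested and none passed. TCF3 differed by 0.0049 ± 0.13 (SE, 95% interval -0.31 to 0.32), TCF4 by 0.04 ± 0.15 (SE, -0.32 to 0.40) and TCF12 by 0.15 ± 0.14 (SE, -0.18 to 0.48), with limma adjusted p of 1, 0.966 and 0.836. The sign of TCF3 turned under other settings, among them centring of the arrays, and that of TCF4 without 1 of the arrays. Of 5 tested TLE corepressors TLE3 was higher and none lower, where 0.244% of all genes tested were called. TLE2 never exceeded the median and was not tested. TLE3 read 10.00, 10.17 and 10.01 on restimulated and 9.25, 9.40 and 9.19 on withdrawn arrays, a difference of 0.78 ± 0.09 (SE, limma adjusted p = 0.0452). Its other tested probe differed by 0.21, and with the mean over both probes the gene did not pass (0.49, adjusted p = 0.0786). The call was also lost whichever array was left out, with adjusted p between 0.0890 and 0.30. TLE4 and TLE1 differed by 0.21 ± 0.12 (SE) and -0.20 ± 0.16 (SE), with adjusted p of 0.750 and 0.829. Of 20 tissue-restricted factors with a probe that pair with E proteins 12 were tested and none passed, with a median of -0.07. NEUROG1 (between 12.72 and 13.81) and MYOD1 (between 12.39 and 12.74) read brighter than either ID2 probe. Whether such signals come from the named transcripts was not tested. PTF1A, TWIST1 and LYL1 had the smallest p, with differences of -0.24, -0.29 and -0.21.

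TLE3 was also the gene whose profile over the 6 arrays was most like that of ID2 (Pearson r = 0.998). The next were SOX2 (0.996), ICAM1 (0.994), RGS16 (0.993) and PDGFRA (0.989), out of 701 genes with a SD of at least 0.3. SOX2 is among the neural markers and PDGFRA among the fibroblast markers given above, and their part in the ID2 values was not tested. In each of these genes the highest restimulated and the highest withdrawn array was replicate 2, as in the brighter ID2 probe, whereas the dimmer ID2 probe was highest on withdrawn replicate 1. A total of 46 of the 701 genes had an r above 0.95. The 6 points share the treatment and the arrays, so these correlations are a description.

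No tested gene of the Notch pathway passed. As 0.244% of all genes tested were called, lists of this size would mostly hold no call. Whether the pathway responded is therefore not shown. Of the ligands 2 of 6 were tested, DLL3 and DLK1 (-0.20 ± 0.13 and -0.19 ± 0.10 SE), while JAG1, JAG2 and DLL4 lay below the median on all arrays. All 4 receptors were tested. NOTCH1 read 7.88, 7.70 and 7.61 on restimulated and 7.29, 7.31 and 7.63 on withdrawn arrays, a difference of 0.32 ± 0.12 (SE, limma adjusted p = 0.609). NOTCH2 differed by 0.15 ± 0.12 (SE, adjusted p = 0.831) and NOTCH3 by -0.19 ± 0.12 (SE, adjusted p = 0.773). NOTCH4 differed by -0.50 ± 0.47 (SE, adjusted p = 0.844), with withdrawn replicate 3 at 8.64 and the other arrays between 6.83 and 7.11. Of 18 tested genes of ligand and receptor processing none passed. PSEN2, a subunit of gamma-secretase, had the smallest p (0.34 ± 0.11 SE, adjusted p = 0.513), followed by DTX2 (-0.28) and RFNG (-0.29). Of 7 nuclear factors none passed. RBPJ differed by 0.12 ± 0.11 (SE), and the coactivators CREBBP and EP300 by -0.27 and -0.13. Of 6 tested targets outside the HES and HEY families none passed, among them NFKB2 (0.28), MYC (-0.27) and CD44 (0.17). The medians of these lists lay between -0.20 and 0.05.

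The BMP pathway likewise held no called gene in the main fit, where 0.244% of all genes tested were called. The genes with the smallest p, SKI and BAMBI, read lower in restimulated cells. Of 15 tested SMAD factors and feedback inhibitors, BAMBI, a decoy receptor for ligands of this family, differed most. It read 9.50, 9.19 and 9.81 on restimulated and 10.17, 10.49 and 10.24 on withdrawn arrays, with no overlap and a difference of -0.80 ± 0.18 (SE, limma adjusted p = 0.347). BAMBI did pass with the interquartile range filter (limma adjusted p = 0.0414) and with an intensity trend and a robust prior (0.0294). That filter keeps genes by their spread over the same 6 arrays, which includes the treatment difference, so passing with it adds no support. SKI, a corepressor of SMAD complexes, differed by -0.46 ± 0.09 (SE, adjusted p = 0.241) and its relative SKIL by -0.28 ± 0.10 (SE, adjusted p = 0.605). On restimulated arrays SKI lay at 6.84, 6.91 and 6.85, near the array median. The median of the list was -0.05. SMAD1, SMAD5 and SMAD9, which carry the BMP signal, differed by -0.06, 0.05 and 0.01. Of 11 tested receptors none passed (median 0.01), and ACVR2A had the smallest p, with -0.28 ± 0.13 (SE, adjusted p = 0.665). Of 8 tested ligands and antagonists none passed (median -0.06), and BMP2 and BMP4 were not tested.

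Genes known to be under the control of E or ID proteins gave 1 call in 18 tested, with a median of -0.0023, where 0.244% of all genes tested were called. The called gene was SOCS3, which is better known as a direct STAT3 target. XBP1, a regulator of secretory cells, read 14.11, 14.47 and 14.43 on restimulated and 13.70, 13.68 and 13.49 on withdrawn arrays, a difference of 0.71 ± 0.12 (SE, limma adjusted p = 0.198). IRF4 differed by 0.49 ± 0.11 (SE, adjusted p = 0.331) and FOXO1 by 0.34 ± 0.11 (SE, adjusted p = 0.521), in each case without overlap. GFI1 read lower without overlap (-0.18). Of the 18 tested genes 5 did not overlap and 8 had a positive sign, and 12.2% of all genes tested showed no overlap. XBP1 and IRF4 are also among the plasma cell markers given above. The cell cycle inhibitors CDKN1A, CDKN2A and CDKN2B differed by 0.12, -0.11 and -0.12. The early B cell genes RAG1, RAG2 and EBF1 were below the median on all arrays, and CD79A was at the ceiling.

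**Figure D4:**
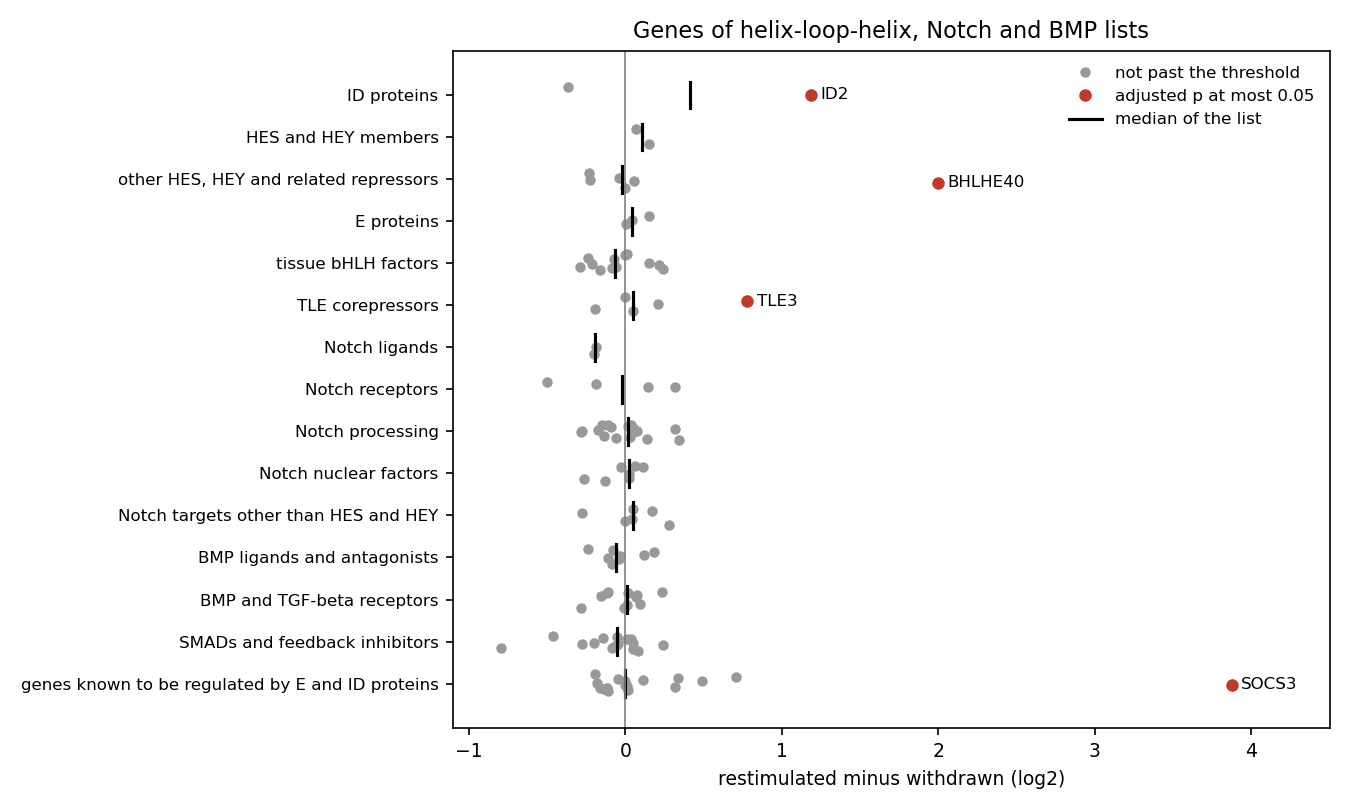
Restimulated minus withdrawn log2 difference (horizontal axis) of every tested gene in 15 lists of helix-loop-helix, Notch and BMP genes, with 1 point per gene, red where the adjusted p over all genes was at most 0.05, and a black bar at the median of each list. ID2, BHLHE40, TLE3 and SOCS3 are the genes past the threshold, and each lies to the right.

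Motifs were searched on both strands of the 250 bases before the start of 7 of the 8 genes. Of the 7 windows 1 held TTCNNNGAA, that of ID3, beginning 181 bases before the start, and it is found in 6.57% of 35116 promoters of that length. The window of ID2 held no match, nor did any of the 7 hold the same palindrome with 1 more spacer base, found in 5.38%. The E-box CANNTG was matched in 3 windows, those of ID2, ID4 and HES6, and is found in 61.8% of promoters. Its form CACGTG was in none of the 7 and is found in 6.34%. The N-box CACNAG, bound by HES proteins, was matched in ID1 and 3 times in HES1, and is found in 32%. The RBPJ core TGGGAA was matched 2 times in HES1, beginning 84 and 70 bases before the start, and 1 time in HES4, beginning at 76, and is found in 20.8%. Of SMAD motifs only GGCGCC and the full palindrome GTCTAGAC were searched. Both were in none of the 7, and are found in 16.4% and 0.182% of promoters. Shorter SMAD sites, such as GTCT, which opens that palindrome, were not searched, so their absence is not shown. E-box matches include those of CACGTG, and the other motifs do not contain each other. These matches are letters in a short window. They are not binding sites, and the absence of a match says nothing about sites farther away.

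**Figure D5:**
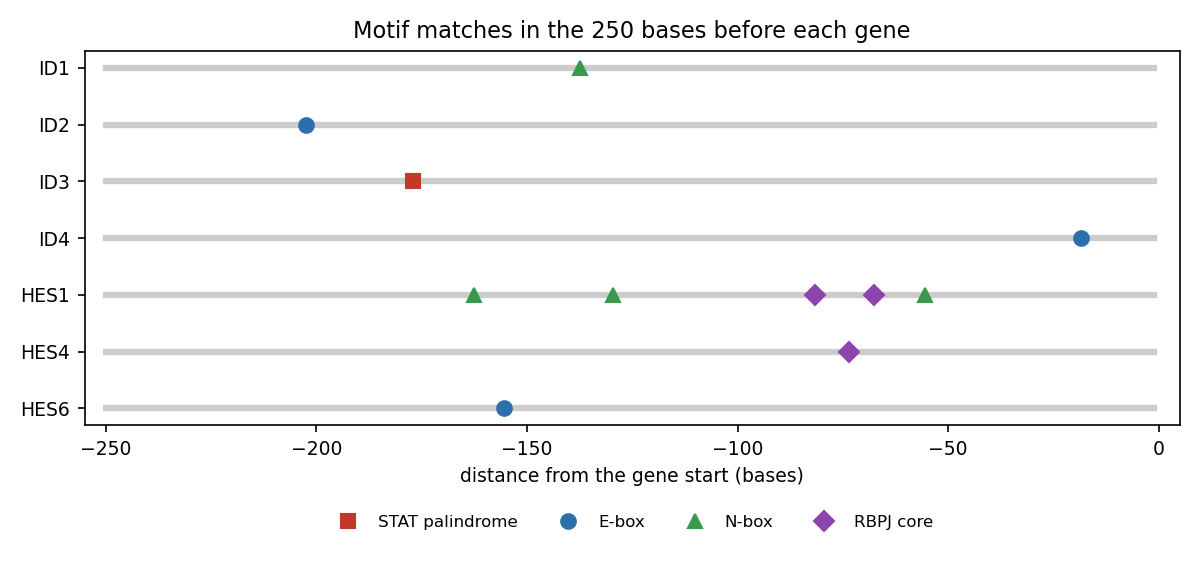
Motif matches in the 250 bases before the start of 7 genes, with the distance from the start in bases on the horizontal axis 1 line per gene and a symbol at the middle of each match. ID3 holds the STAT palindrome, ID2, ID4 and HES6 an E-box each, and HES1 and HES4 the RBPJ core, with matches that begin between 84 and 70 bases before the start.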

How the data were processed

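Total RNA was amplified with a random hexamer carrying a T7 promoter, hybridized to a custom Agilent array and scanned. The authors applied quantile normalization and deposited log2 intensities, 1 per spot and array, with R 2.9.0 and limma listed in the submitters' processing notes. How background was subtracted is not stated in the labels or methods. Sorted columns differed by at most 0.199, so values were used as deposited, and a shift of all transcripts together cannot be seen. On each array 0.719% to 0.900% of spots sat at the ceiling of 16, where differences are lost. Arrays give no read depth, and 3 per group limit the precision.

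Spots were joined to a platform table of 27216 probes with 1 symbol by a rule on the grid of 912 by 267 spots. Under it, mean levels of 2 probes of a gene correlated with r = 0.430 over 7157 genes, against r = 0.018 when equal numbers were matched. Symbols and promoter sequences came from RefSeq (GRCh38.p14). Accessions named 23835 probes, current symbols 2495 and older symbols 854, while 32 kept the name in the table. All 8 members matched. Promoter motifs were searched for 7 members, and HEY1 was not analysed here for sequence. Protein sequences were not analysed here.

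The study's filter used negative controls, which no name marks among these spots, so the array median stood in for background. Restimulated and withdrawn arrays were compared by limma 3.58.1 (R 4.3.3) with moderated two-sided tests, and p-values were adjusted by Benjamini-Hochberg over 12703 genes or 122102 probes, with a threshold of 0.05. A gene was its brightest tested probe. The scripts were tested on simulated data. Replicate numbers are shared between the groups, but the labels do not state whether equal numbers pair samples, so the main fit left them unpaired. Members and lists were chosen with earlier results of these data known. Named genes were the members, called list genes and up to 3 of each list with the smallest p, the 5 profiles most like ID2, SOCS3 and SGK1. The profile search planned for ID1 was left out because ID1 was not tested, and ID3 took its place after values were seen. Further genes are named as list members. Alternatives were the probe rule, the filter, the variance model, the normalization, a replicate block, the ceiling and leaving out each array.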

Additional observations from a re-analysis of the deposited data

How the results depend on the processing

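ID2 kept its sign in all 15 alternatives (differences from 1.09 to 1.28) and passed in 8 of them, with adjusted p between 0.000284 and 0.0474 in those 8. Among the 8 is the interquartile range filter, which selects genes by their spread over the same arrays, so that pass adds no support. ID3, HES4 and HES6 passed in none of the alternatives that tested them. The number of genes called was 31. It was 74 with the interquartile range filter of the methods, which tested 324 genes, 78 with an intensity trend and a robust prior, and 58 without spots at the ceiling. It lay between 6 and 15 with 1 array left out, in fits with fewer arrays, and 0 members were then called in each. With a replicate block 1 gene and 0 members were called, and ID2 had an adjusted p of 0.124. Samples with the same number did not deviate together (r = 0.048, -0.023 and -0.276 for numbers 1, 2 and 3). These values cannot show that a pairing is absent, and the block rests on a shared number only. Signs turned for genes near 0. With the mean over probes TCF3 was at -0.034 and TWSG1, a BMP antagonist, at -0.022. With arrays centred on their median TCF3 was at -0.0040. With 1 array left out HES6 lay between -0.092 and 0.196, TCF3 between -0.102 and 0.106, TCF4 between -0.099 and 0.174 and CD44 between -0.016 and 0.313. The cause of these moves was not tested. BAMBI passed with the trend and robust prior (adjusted p = 0.0294) and with the interquartile range filter (0.0414), and XBP1 with that filter (0.0376) and without ceiling spots (0.0417). The passes with the filter add no support, as it selects on spread.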

Other observations

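ID3 was followed further after its values were seen. The genes most like it over the 6 arrays were TSPAN5 (Pearson r = 0.984), CCDC183 (0.970), NUS1 (0.965), GPR17 (0.960) and ZZEF1 (0.947), and 4 of the 701 genes had an r above 0.95. TSPAN5, a tetraspanin, read 13.15, 13.52 and 13.42 on restimulated and 13.69, 14.16 and 13.92 on withdrawn arrays, a difference of -0.56 that did not pass (limma adjusted p = 0.459). GPR17, a G protein-coupled receptor, read 9.14, 9.44 and 9.33 against 9.81, 10.11 and 9.85 (-0.62, limma adjusted p = 0.244). In both genes every restimulated array lay below every withdrawn one, as in ID3.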
